A study of Mus musculus with 4 samples.

Results

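The 10 core circadian clock genes Arntl, Clock, Npas2, Per1, Per2, Per3, Cry1, Cry2, Dbp and Nfil3 were examined in mouse liver with and without Cre delivered to floxed Trib1. They were read from the probes of the array whose gene name equals one of these symbols, control spots left out. This gave 13 probes among 39429 and 10 genes among 30139 gene names, with 1 spot per probe on each array. RNA came from whole liver of female C57B/6 mice of 8 to 10 weeks. Every animal carried the floxed allele of Trib1 on both copies, the controls included. Mice received an adeno-associated virus with Cre recombinase (AAV_Cre), which removes sequence between loxP sites, or a control virus (AAV_Null), and livers were taken 1 week later after a fast of 4 hours. There were 4 arrays on 1 slide, and each held 1 RNA of each treatment in opposite dyes. The AAV_Cre RNA carried Cy5 on arrays 1 and 2, and it carried Cy3 on arrays 3 and 4. The promoter that drives Cre, the clock time of harvest and whether an RNA came from 1 animal or a pool are not given in the sources used here.

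The circadian clock of a cell is a feedback loop of transcription. ARNTL (also called BMAL1) pairs with CLOCK or its relative NPAS2 and activates genes that carry an E-box, among them those of the period (Per) and cryptochrome (Cry) proteins, which then return to the nucleus and repress the pair. DBP and NFIL3 (also called E4BP4) bind the same D-box element, where DBP activates and NFIL3 represses, and both are themselves outputs of the loop. In liver this loop drives daily rhythms in bile acid, drug and lipid metabolism, so the level of a member can depend on the hour at which tissue is taken.

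The following stretches are shown because letters of the elements through which these factors act stand in some of the members' own promoters. RefSeq promoters (assembly GRCm38.p6) were matched for 9 of the 10 members, in 13 windows, and the 250 bases before each start were searched on both strands. The E-box letters CACGTG occurred in 6.02% of 32851 promoters of the same length. The D-box, spelled TTATGTAA, TTATGCAA, TTACGTAA or TTACGCAA, occurred in 1.75%, and AGGTCA, the core of the element bound by ROR and REV-ERB receptors, in 14.0%. These motifs do not overlap one another in the stretches shown. An E-box or D-box was found in 3 members, and the capitals mark those letters, written 5′ to 3′ on the strand of the gene.
Per1, chr11:69098771-69098944, plus strand: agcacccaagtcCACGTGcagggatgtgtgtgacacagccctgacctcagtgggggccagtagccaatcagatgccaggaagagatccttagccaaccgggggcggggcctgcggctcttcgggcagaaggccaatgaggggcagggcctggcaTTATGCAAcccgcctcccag
Per3, chr4:151044804-151044882, minus strand: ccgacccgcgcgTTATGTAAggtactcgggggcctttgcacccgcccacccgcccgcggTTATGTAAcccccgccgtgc
Cry1, chr10:85185097-85185126, minus strand: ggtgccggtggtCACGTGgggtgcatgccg

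The Per1 promoter held an E-box 166 to 161 bases before the start and a D-box at 24 to 17. The Per3 promoter held a pair of D-boxes of the same spelling, at 205 to 198 and at 158 to 151 bases before the start. The Cry1 E-box lay at 60 to 55. AGGTCA was found, on the opposite strand, in the windows of Per1, Nfil3 and 1 start of Clock. A match is a description of letters and not a measured binding site.

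On each array 43020 spots were not controls, and between 51.0% and 58.7% of these were well above background in a channel. The ratio of AAV_Cre over AAV_Null was fitted for 16081 genes with a dye term in limma, and 287 genes (1.78%) were higher and 157 (0.976%) lower at an adjusted p of 0.05. At an unadjusted p under 0.05, 1866 genes (11.6%) were higher and 1768 (11.0%) lower. The correlation of ratios over all genes, which are not independent replicates, was 0.66 for arrays 1 and 2, 0.49 for arrays 3 and 4, and 0.067 to 0.19 for the other pairs of arrays. Trib1 itself was higher in RNA labelled AAV_Cre, with a log2 ratio of 0.94 ± 0.08 (SE, n = 4 arrays) and an adjusted p of 0.0210, and its other probes had 1.29 and -0.047; the floxed part of the gene is not stated in the labels. Directions below are therefore those of the library labels, AAV_Cre over AAV_Null. Of the hepatocyte markers 10 of 11 names were measured and 1 passed the test, Trf, with a fitted log2 ratio of -0.52. Its ratios were 0.27, 0.33, -1.18 and -1.51 on arrays 1 to 4, opposite in sign between the dye orientations, and its dye term of 0.82, at an adjusted p of 0.0273 in limma, was larger in size than the ratio. Stellate markers had a median log2 ratio of 0.33 over 5 measured and 1 passed the test, Col3a1, at 0.47 ± 0.06. Of 9 macrophage, 5 NK and T cell, 7 endothelial and 3 cholangiocyte markers measured, 0 passed in limma. At an unadjusted p under 0.05 the hepatocyte list had 1 higher and 3 lower, the stellate list 3 higher and 0 lower, and the endothelial list 1 higher and 4 lower. Some of these also split by dye orientation. Alb, among the hepatocyte genes lower, had 0.39, 0.27, -0.95 and -1.27 on arrays 1 to 4. Its dye term was 0.72, at an adjusted p of 0.0316 in limma. Kdr, among the endothelial genes lower, had 0.13, 0.02, -0.57 and -0.40, while Clec4g and Tek were below 0 on every array. The macrophage list had 0 higher and 1 lower, the cholangiocyte list 1 higher and 0 lower, and the NK and T cell list 0 in either direction. In bulk tissue fewer cells of a type and less RNA per cell cannot be told apart.

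Of the 9 clock genes that could be tested 1 differed between the treatments: Nfil3, the D-box repressor, which was 1.70-fold higher in AAV_Cre livers, where 1.78% of all genes were called higher. No member was lower past the threshold, where 0.976% of all genes were. Dbp, the D-box activator, ran in opposite directions on different arrays, as did Arntl, Per3, Per1, Per2, Cry1 and Clock. Npas2 was not well above background in any of the 8 channels and was not tested. At an unadjusted p under 0.05 the count was the same, 1 higher and 0 lower, where 11.6% and 11.0% of all genes were. Over the 9 members the median log2 ratio was 0.05, beside -0.0025 over all genes, with 5 members above 0 and 4 below.

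**Figure D1:**
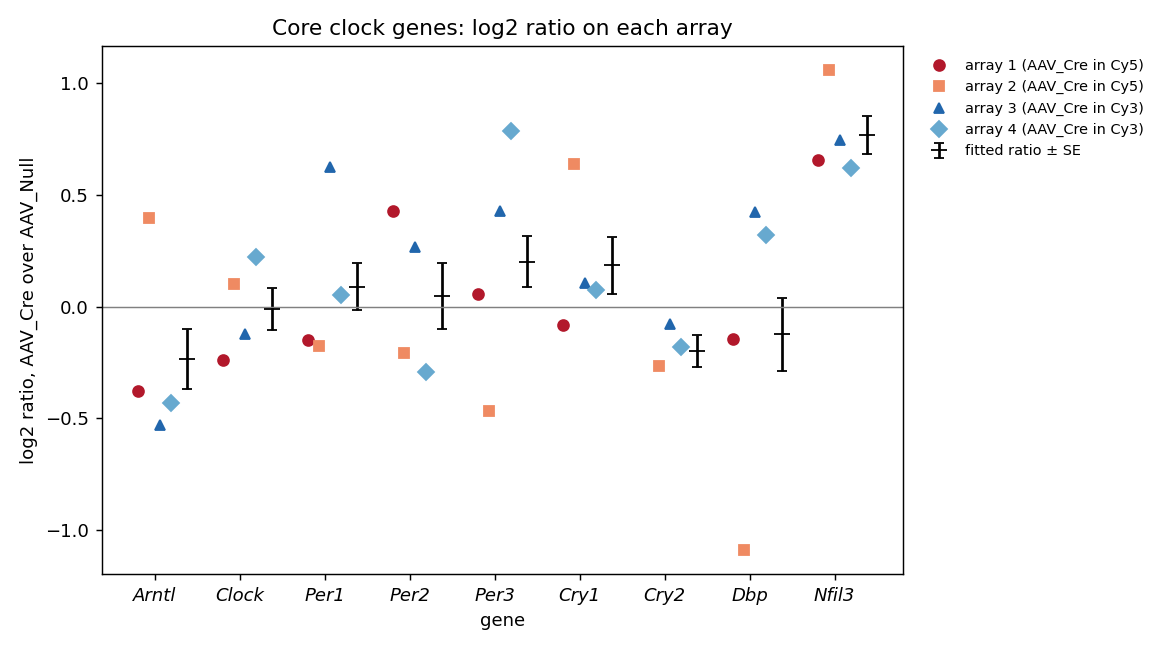
Log2 ratio of AAV_Cre over AAV_Null (vertical axis) for each clock gene that was tested (horizontal axis), with 1 coloured point per array and, beside the points, the fitted ratio as a black bar with its SE. Nfil3 sits above 0 on 4 of 4 arrays, from 0.62 to 1.06, while Dbp runs from -1.09 on array 2 to 0.42 on array 3.

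Of the D-box factors, the repressor passed the test and the activator did not. Nfil3 (probe at chr13:53062578-53062637, mm9) had log2 ratios of 0.65, 1.06, 0.74 and 0.62 on arrays 1 to 4. It was above 0 on every array and highest on array 2. The fitted ratio was 0.77 ± 0.08 (SE, n = 4 arrays), a fold of 1.70 with a 95% interval of 1.46 to 1.99, at an adjusted p of 0.0311 in limma. The mean was 0.86 over arrays 1 and 2 and 0.68 over arrays 3 and 4, so the direction held in both dye orientations. Leaving out any 1 array kept the ratio between 0.67 and 0.87, but the adjusted p then ran from 0.0894 to 0.175 and no member was called, beside at most 0.139% of all genes called higher. The summed level of 5 stellate markers ran from 15.49 to 15.94 in AAV_Cre RNA and from 14.98 to 15.76 in AAV_Null RNA on the log2 scale, and its part in the Nfil3 ratio was not tested.

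As log2 intensities, Nfil3 in AAV_Cre RNA read 12.24, 12.95, 13.37 and 12.42 on arrays 1 to 4, with a mean of 12.75 ± 0.52 (SD, n = 4). In AAV_Null RNA it read 11.59, 11.89, 12.63 and 11.80, with a mean of 11.98 ± 0.45 (SD, n = 4). These levels overlap between the treatments, since the AAV_Null level of array 3 lay above the AAV_Cre levels of arrays 1 and 4. Both channels of an array share a spot, so the ratio within an array leaves out differences between spots, and the levels between arrays carry them.

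Dbp was measured by a pair of probes of the same transcript, which had the same sign on each array. The brighter probe (chr7:52965461-52965520, mm9) had log2 ratios of -0.15, -1.09, 0.42 and 0.32 on arrays 1 to 4. The other (chr7:52965322-52965381) had -0.17, -0.91, 0.36 and 0.23. Both were below 0 on arrays 1 and 2 and above 0 on arrays 3 and 4, with array 2 far below the rest. The fitted ratio was -0.12 ± 0.16 (SE, n = 4), a fold of 0.918 with a 95% interval of 0.682 to 1.23, at an adjusted p of 0.694 in limma. Without array 1 the ratio was -0.36 and without array 2 it was 0.11.

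The split of Dbp followed dye orientation as well as RNA. The mean of the brighter probe was -0.62 where AAV_Cre was in Cy5 and 0.37 where it was in Cy3, and its dye term was -0.49 at an adjusted p of 0.156 in limma. Each orientation holds its own RNA pairs, so dye and a difference between RNA pairs cannot be told apart here. The Dbp level in AAV_Cre RNA was 14.34, 13.54, 14.45 and 14.73 on arrays 1 to 4, and in AAV_Null RNA 14.49, 14.63, 14.03 and 14.41. The lowest level was that of the AAV_Cre RNA on array 2, and the groups overlapped.

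**Figure D2:**
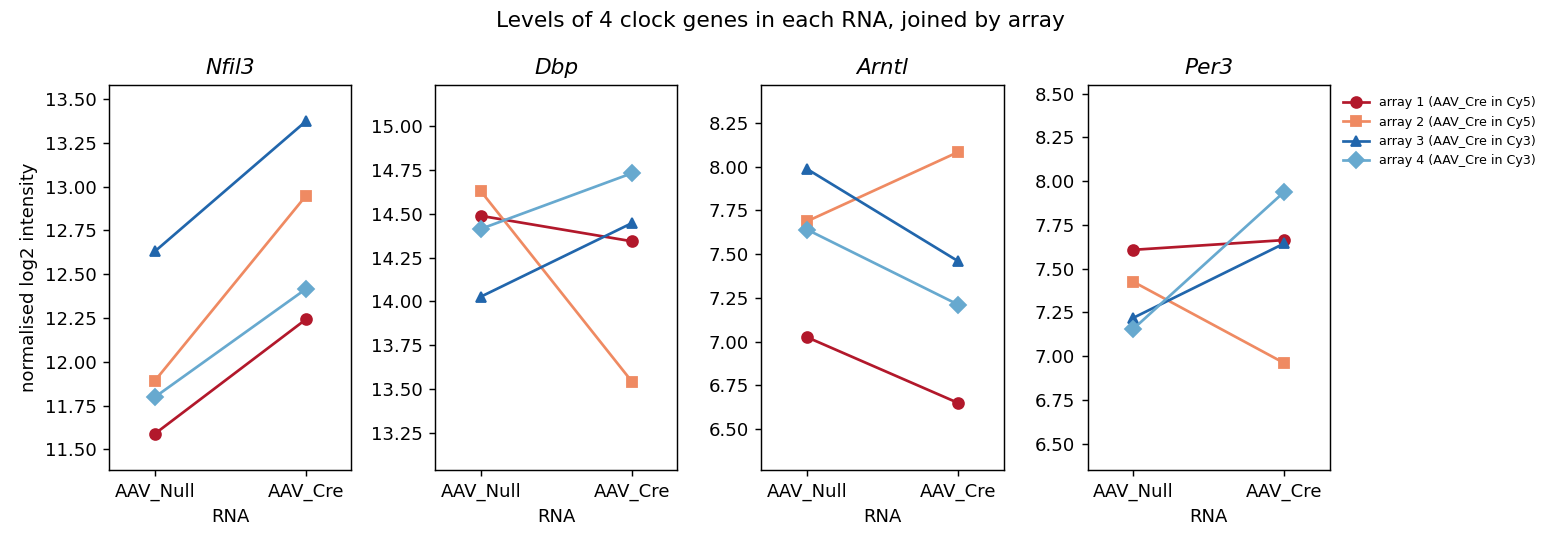
Log2 intensity after loess and Aquantile scaling (vertical axes) of Nfil3, Dbp, Arntl and Per3 in AAV_Null and AAV_Cre RNA (horizontal axes), with a line for each array that joins its 2 channels. All 4 Nfil3 lines rise from AAV_Null to AAV_Cre, while in Dbp, Arntl and Per3 the line of array 2 runs against that of arrays 3 and 4.

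Among the activators of the loop, none passed the test. Arntl, the obligate partner of the activating pair (probe at chr7:120457261-120457320, mm9), had log2 ratios of -0.38, 0.396, -0.53 and -0.43 on arrays 1 to 4. It was below 0 on 3 arrays that lay close together and above 0 on array 2. The fitted ratio was -0.23 ± 0.14 (SE, n = 4), a fold of 0.850 with an interval of 0.663 to 1.09, at an adjusted p of 0.378 in limma. It was -0.43 without array 2 and -0.041 without array 1, and neither passed. Its level ran from 6.65 to 8.08 in AAV_Cre RNA and from 7.03 to 7.99 in AAV_Null RNA.

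Clock, which pairs with ARNTL (chr5:76641377-76641436, mm9), had ratios of -0.24, 0.10, -0.12 and 0.22, with 2 arrays on each side of 0. Its fitted ratio was -0.0095 ± 0.093 (SE, n = 4), a fold of 0.993 with an interval of 0.839 to 1.18, at an adjusted p of 0.962 in limma. Of the tested members this estimate lay closest to 0. Npas2 (chr1:39418941-39419000, mm9), the relative of CLOCK, was not well above background, and no fold is given.

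The period genes encode repressors of the pair, and none of the 3 passed the test. Per1 (chr11:68923364-68923423, mm9) had log2 ratios of -0.15, -0.17, 0.62 and 0.05 on arrays 1 to 4. It was slightly below 0 on arrays 1 and 2 and clearly above 0 on array 3 alone. The fitted ratio was 0.09 ± 0.11 (SE, n = 4), with an interval in fold of 0.878 to 1.29 and an adjusted p of 0.659 in limma. Another Per1 probe, at chr11:68919895-68919954, was not well above background in any channel.

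Per2 (chr1:93313046-93313105, mm9) had 0.43, -0.21, 0.27 and -0.29, with 1 array of each dye orientation on each side of 0. Its fitted ratio was 0.05 ± 0.15 (SE, n = 4), with an interval in fold of 0.791 to 1.35 and an adjusted p of 0.872 in limma. Per3 (chr4:150379256-150379315, mm9), whose promoter carries both D-boxes shown above, had 0.06, -0.47, 0.43 and 0.78. Like Dbp it was lowest on array 2 and above 0 on arrays 3 and 4. Its fitted ratio was 0.20 ± 0.11 (SE, n = 4), with an interval in fold of 0.933 to 1.41 and an adjusted p of 0.370 in limma. On the scanner's processed signals Per3 had 0.43, which did not pass either. The Per3 dye term was -0.41 at an adjusted p of 0.127, and its mean was 0.61 over arrays 3 and 4.

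The cryptochromes are the other arm of the repressor, and neither passed the test. Cry1 (chr10:84594731-84594790, mm9), whose promoter holds the E-box shown above, had log2 ratios of -0.08, 0.64, 0.10 and 0.08 on arrays 1 to 4. It was near 0 on 3 arrays and high on array 2. The fitted ratio was 0.18 ± 0.13 (SE, n = 4), with an interval in fold of 0.902 to 1.43 and an adjusted p of 0.448 in limma. On the scanner's processed signals it was 0.53, and without array 2 it was 0.0052, and neither passed.

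Cry2 was the other member, beside Nfil3, with 1 sign on every array measured. Its brighter probe (chr2:92243807-92243866, mm9) had ratios of -0.27, -0.08 and -0.18 on arrays 2, 3 and 4. The spot on array 1 was marked as an outlier by the scanner software and left out of the fit, and it had -0.09 when kept. The fitted ratio was -0.20 ± 0.07 (SE, n = 3), a fold of 0.872 with an interval of 0.757 to 1.00, at an adjusted p of 0.231 in limma. The 3 AAV_Cre levels, 13.53 to 13.73, all lay below the 3 AAV_Null levels, 13.80 to 13.91. Of the 9 members it was the 1 whose levels did not overlap between the treatments in either direction. In 2.68% of all genes every AAV_Cre level lay below every AAV_Null level on the arrays measured. Among the 15705 genes with 4 arrays, all AAV_Cre levels lay above all AAV_Null levels in 3.19% and below them in 2.66%. With 3 arrays, as for this Cry2 probe, levels separate more easily. The other Cry2 probe (chr2:92251417-92251476), of another transcript, had -0.04, -0.20, 0.19 and -0.05. Its fitted ratio was -0.02 ± 0.07 (SE, n = 4). Adjusted over the 20337 probes, of which 2.37% were called, its p was 0.865 in limma.

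The members varied more between arrays than most genes. Their range over the arrays had a median of 0.72 on the log2 scale, beside 0.42 over all genes, and 8 of 9 members lay above that value. Genes were not matched for intensity in this comparison. Arntl, Per3 and Cry1 were dim, at mean log2 intensities of 7.48, 7.45 and 7.54, while Dbp, of widest range, was bright at 14.32. The standard error ran from 0.071 to 0.16 among the members, and its median over all genes was 0.063. The 95% intervals of the 8 uncalled members all included a fold of 1 and reached from 0.663 for Arntl to 1.43 for Cry1, so these arrays do not show that a member was unchanged. Single channels varied too. Of the 8 members on 4 arrays, the range of the level exceeded the median range of all genes in 8 in AAV_Cre RNA and in 7 in AAV_Null RNA.

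Array 2 held the widest spread of clock ratios. There Nfil3, Cry1, Arntl and Clock were above 0 and Dbp, Per3, Cry2, Per2 and Per1 below 0, over a range of 2.15, beside 1.03, 1.27 and 1.21 on arrays 1, 3 and 4. The median absolute ratio of the members was 0.19, 0.40, 0.42 and 0.29 on arrays 1 to 4, and that of all genes was 0.16, 0.18, 0.18 and 0.17. On arrays 3 and 4 Dbp and Per3 were above 0 and Arntl was below 0, the reverse of array 2 for all 3 genes. Arrays 3 and 4 also carried AAV_Cre in the other dye, so dye and RNA pair cannot be told apart in this reversal. Nfil3 kept its sign across this reversal. Array 1 matched neither pattern, since Dbp (-0.15) and Arntl (-0.38) were both below 0 there and Per3 had 0.06. Arntl and Per3 were dim, with mean log2 intensities of 7.48 and 7.45, beside 6.39 for Npas2, which was not well above background.

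The rest of the loop was described by a list of 12 genes, of which 10 were measured and 0 passed the test in limma, against 3 higher and 0 lower at an unadjusted p under 0.05 (11.6% and 11.0% of all genes). Its median log2 ratio was 0.033. Ciart, a repressor of the ARNTL and CLOCK pair, had 0.61, 0.23, 0.66 and 0.30 on arrays 1 to 4 and a fitted ratio of 0.45 ± 0.10 (SE, n = 4), at an adjusted p of 0.0940. Ciart was above 0 on every array, and it passed in 4 of 18 other settings, a looser threshold of 0.10 among them. Its adjusted p in limma was 0.0386 on the authors' deposited log2 values, 0.0343 with no background correction and 0.0301 with a trended robust prior. Those 3 settings called 5.18%, 5.4% and 5.05% of all genes higher, beside 1.78% in the reported fit. The adjusted p of Ciart in limma was 0.107 with no dye term and 0.135 with no filter on dim probes. Rora, a receptor that activates Arntl, had 0.32, 0.44, 0.08 and 0.52 and a fitted ratio of 0.34 ± 0.09 (SE, n = 4), at an adjusted p of 0.127. Rora too was above 0 on every array. Its adjusted p was 0.0474 in limma with the trended robust prior, the 1 of 18 other settings in which it passed.

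Nr1d1, which encodes REV-ERBα, the repressor of Arntl and Nfil3, had 0.04, -0.46, 0.10 and 0.44 and a fitted ratio of 0.03 ± 0.11 (SE, n = 4). It was low on array 2 and high on array 4, as Per3 was. Nr1d2 had a fitted ratio of 0.01, and Tef and Hlf, the D-box activators related to DBP, had -0.013 and 0.044. Bhlhe40, Cipc and Arntl2 had 0.037, 0.19 and -0.14. Nr1d1 and the other genes of this paragraph were chosen after their values were seen.

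**Figure D3:**
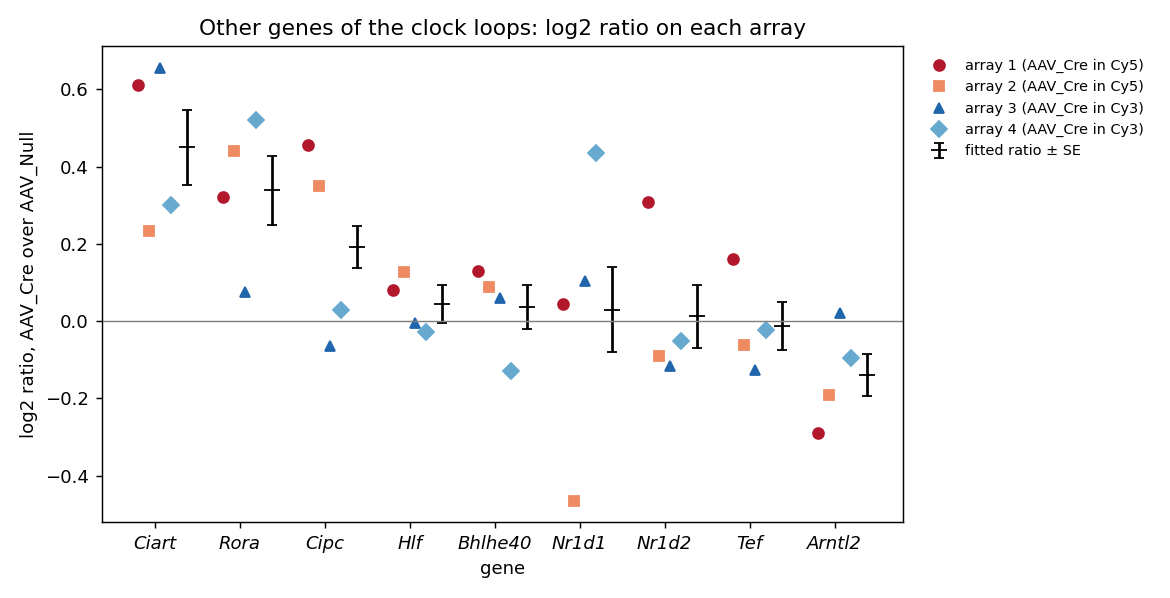
Log2 ratio of AAV_Cre over AAV_Null (vertical axis) for 9 of the 10 measured genes of the wider clock loop (horizontal axis), with 1 coloured point per array and the fitted ratio as a black bar with its SE. Ciart and Rora lie above 0 on 4 of 4 arrays, and Nr1d1 is lowest on array 2, at -0.46.

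Of 12 kinases, ligases and other enzymes that act on clock proteins, all measured, 0 passed the test in limma, where 2.76% of all genes did. Of these enzymes 0 had an unadjusted p under 0.05 in either direction, beside 11.6% of all genes higher and 11.0% lower. Usp2, a rhythmic deubiquitinase, had the largest ratio among them, with -0.20, -1.26, -0.50 and -0.07 on arrays 1 to 4 and a fitted -0.51 ± 0.19 (SE, n = 4) at an adjusted p of 0.222. It was below 0 throughout and lowest on array 2. Csnk1e, which phosphorylates the period proteins, had 0.18 ± 0.07 (SE, n = 4), while another of its probes had -0.085.

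Liver genes known as targets of DBP and its relatives, which share the D-box with NFIL3, did not pass the test either. Of 8 listed 7 were measured, 0 were called in limma, and at an unadjusted p under 0.05 there were 0 higher and 1 lower, beside 11.6% and 11.0% of all genes. The list's median was -0.028. Cyp7a1, the rate-limiting enzyme of bile acid synthesis, had 0.43, 0.02, 1.07 and -0.01, and its fitted ratio was 0.38 ± 0.19 (SE, n = 4) at an adjusted p of 0.331. It was high on arrays 1 and 3 only. Cyp2c50, a cytochrome P450, had -0.13, -0.28, -0.49 and -0.51 and a fitted ratio of -0.36 ± 0.05 (SE, n = 4), at an adjusted p of 0.0523. It was below 0 on every array, and it passed in 5 of 18 other settings, a looser threshold of 0.10 among them.

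Among 15 rhythmic output genes of liver, 1 was higher and 0 lower past the threshold, where 1.78% and 0.976% of all genes were. At an unadjusted p under 0.05, 4 were higher and 3 lower, where 11.6% and 11.0% of all genes were. The gene that rose was Elovl3, a fatty acid elongase with a strong daily rhythm, with 0.94, 1.54, 1.07 and 1.27 on arrays 1 to 4. It was 2.31-fold higher, at a log2 ratio of 1.21 ± 0.11 (SE, n = 4) and an adjusted p of 0.0229 in limma. Without any 1 array its adjusted p ran from 0.0739 to 0.121.

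Other outputs, chosen after their values were seen, stood out on array 2. Upp2, a uridine phosphorylase, had -0.36, -1.38, -0.10 and -0.26, and Wee1, a cell cycle kinase under E-box control, had 0.03, -0.74, -0.45 and -0.31. Tubb2a, a tubulin, had 0.70, 1.53, 0.06 and 0.19, and Insig2, which holds back sterol synthesis, had 0.51, 1.34, 0.57 and 0.75. Each had its largest ratio in size on array 2, and the adjusted p was 0.182, 0.211, 0.107 and 0.0734 in limma.

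The genes most like Nfil3 over the 4 arrays were sought among 11825 genes by the root mean square difference of their log2 ratios, as a description. The closest was Med1, a subunit of the Mediator complex, at 0.111, with a fitted ratio of 0.70 and an adjusted p of 0.0217 in limma. Other probes of Med1 had -0.10 and -0.040, so its value depended on the probe. Next came Mup21, at 0.119, with 0.81; major urinary protein genes are near-identical copies, so which copy this probe measured is uncertain. Gpat3, which acylates glycerol phosphate, followed at 0.133 with 0.68 at an adjusted p of 0.0580. For Dbp, the uncalled member of widest range, the closest were Lrrcc1, Sstr4 and Lrrc8c at 0.155, 0.163 and 0.167.

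**Figure D4:**
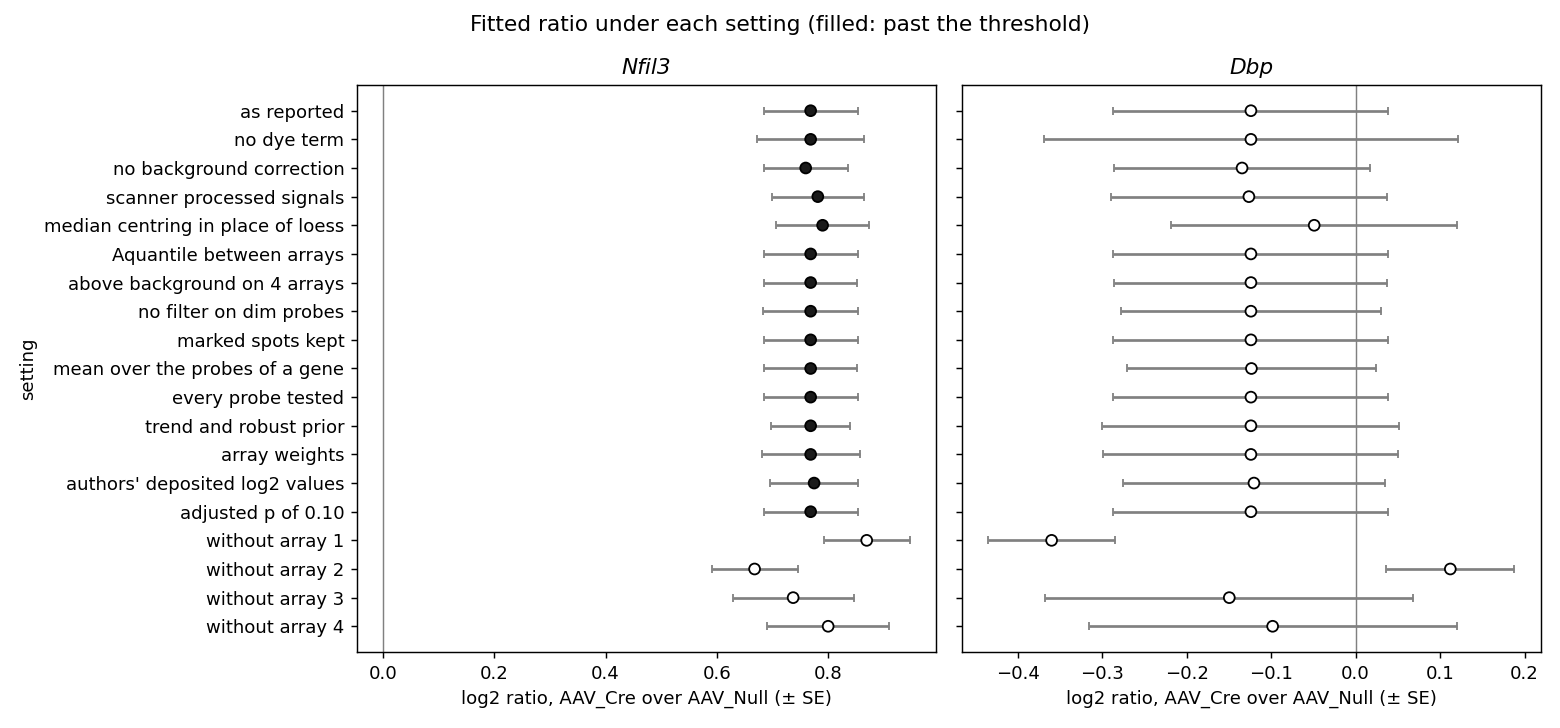
Fitted log2 ratio of AAV_Cre over AAV_Null with its SE (horizontal axes) of Nfil3 and Dbp under the reported fit, the 14 other processing settings and the 4 fits that leave out 1 array (vertical axis), where filled points passed the threshold. Nfil3 stays between 0.67 and 0.87 throughout and is past the threshold in each setting that kept all arrays, while Dbp runs from -0.36 without array 1 to 0.11 without array 2.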

How the data were processed

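The scanner files deposited by the authors hold spot intensity, local background and a log10 ratio of Cy5 over Cy3, written, per the file headers, by Agilent Feature Extraction 11.5.1.1. The authors also deposited a table of log2 values. The submitters' processing notes name limma and give no steps. Against the scanner's log10 ratio that table had slopes of 3.34, 3.33, -3.29 and -3.40 and medians of -0.022, -0.038, 0.035 and 0.041 on arrays 1 to 4, so it is log2 of AAV_Cre over AAV_Null, with centring steps unknown. Of its 43173 rows, 43171 matched spots.

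Mean intensities were corrected by normexp (offset 50) and then by loess within arrays, giving control spots weight 0 (limma 3.58.1, R 4.3.3). Outlier spots were dropped, except for probes marked on all 4 arrays. Probes well above background on at least 3 arrays of a treatment and measured on at least 3 arrays were tested, 20337 in all. The fit held treatment and dye, with 2 residual and 2.66 prior degrees of freedom. The probe of highest mean intensity stood for a gene, with Benjamini-Hochberg adjustment over genes. The 4 arrays limit the precision. The smallest p of a two-sided exact sign permutation over 4 arrays is 0.125, so none is given. The spread behind each p-value is that of arrays of 1 orientation, which may be technical, and the dye term takes up differences between the orientations' RNA pairs. Levels are from loess and Aquantile scaling and are open to dye bias. No slide term was needed for 1 slide. The labels' protocols describe more than 1 labelling procedure, and which was used was not settled.

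The members and lists were chosen with earlier results of these data known. Named genes were all members, the called genes of each clock list or else its pair of largest ratio, the 3 genes closest to Nfil3 and to the uncalled member of widest range, and Trib1. Other named genes were chosen after their values were seen, and 1 gene of the wider loop is not reported here. Probe coordinates are those of the array files (mm9), and promoters are RefSeq's (GRCm38.p6); coordinates of both builds were not combined. The fit was tested on simulated data. The alternatives were no dye term, other background corrections, normalisations, filters, probe rules, priors and thresholds, array weights, the deposited log2 values, and each array left out. Figures were drawn with matplotlib 3.10.9.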

Additional observations from a re-analysis of the deposited data

Results flagged for a closer look

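Arntl on array 2 stood apart from the other arrays, with a log2 ratio of 0.396 against -0.53 to -0.38 on arrays 1, 3 and 4. Tsc22d3, which encodes the glucocorticoid-induced protein GILZ, also stood apart on array 2, with -0.62 against -0.43 on each of the others, and it was below 0 on 4 of 4 arrays. The gap to the nearest array was above Dixon's 95% critical value for 4 values in both. Of 26 genes examined in this way 2 stood apart, where chance would give about 1.3 for independent genes. Several of the 26 were chosen for their ratios or their likeness to Nfil3 or Dbp, so that number is only a rough guide.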

How the results depend on the processing

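In the 14 settings that kept all arrays, 1 member was called higher and 0 lower, no member changed sign, the members' median lay between 0.022 and 0.062, and Nfil3 lay between 0.76 and 0.79 with an adjusted p of 0.0014 to 0.0337 in limma. When 1 array was left out, the count called higher was 0 to 0 and the median ran from -0.054 to 0.11. The ratio then ran from -0.0956 to 0.0765 for Clock, -0.0538 to 0.2315 for Per1, -0.1103 to 0.2085 for Per2, -0.3598 to 0.1121 for Dbp and -0.1975 to 0.0347 for Cry2; without array 2, 3 or 4 the other Cry2 probe stood for the gene. Of 360 values of named genes 318 kept their direction and side of the threshold, 20 lost the call, 14 gained it and 8 changed sign. Dusp1 also lost its call with no dye term (adjusted p 0.0691), with p adjusted over every probe (0.0501) and with array weights (0.0520), and Tsc22d3 with median centring (0.0516).

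Over all genes, higher and lower calls were 287 and 157 as reported, and 183 and 87 with no dye term, 869 and 668 with no background correction, 461 and 270 on the scanner's processed signals, 528 and 228 with median centring, 200 and 97 with no filter on dim probes, 812 and 659 with a trended robust prior, 827 and 555 on the deposited log2 values, and 749 and 538 at an adjusted p of 0.10. They were 12 and 1 without array 1, 0 and 0 without array 2 (1140 and 969 at an unadjusted p under 0.05), 22 and 15 without array 3, and 0 and 0 without array 4 (1747 and 1560). The cause was not tested. The treatments are paired within each array by the ratio itself. Arrays of different dye orientation share no replicate numbers and were not paired with each other.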

Other observations

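Glucocorticoid and fasting genes, which feed into the liver clock, gave 1 call in each direction among 12 measured, where 1.78% of all genes were called higher and 0.976% lower. Dusp1, a phosphatase of MAP kinases induced by glucocorticoids, had log2 ratios of 0.89, 1.64, 0.56 and 0.65 on arrays 1 to 4 and rose 1.91-fold. Its fitted log2 ratio was 0.93 ± 0.13 (SE, n = 4 arrays), with limma's adjusted p at 0.0466. Tsc22d3, another glucocorticoid target, had -0.43, -0.62, -0.43 and -0.43 and a fitted ratio of -0.48 ± 0.06 (SE, n = 4), with limma's adjusted p at 0.0360, so it fell. Dusp1 and Tsc22d3 lay on opposite sides of 0 on every array. Of the other listed genes, Fkbp5 had -0.37, 0.22, 0.94 and 0.13 on arrays 1 to 4, and Sgk1 and Tat also changed sign between arrays. A difference in glucocorticoid signalling was not tested. Without any 1 array the adjusted p ran from 0.0814 to 0.150 for Dusp1 and from 0.0947 to 0.224 for Tsc22d3.

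Of the temperature-driven genes, 5 of 7 were measured and 0 passed in limma, beside 0 higher and 2 lower at an unadjusted p under 0.05 (11.6% and 11.0% of all genes). Rbm3, a cold-induced RNA-binding protein, had -0.17, 0.15, 1.21 and 0.30, high on array 3 alone. The heat shock protein gene Hsp90aa1 had -0.32, -0.47, -0.45 and -0.15 on arrays 1 to 4. Its fitted ratio was -0.35 ± 0.07 (SE, n = 4), at an adjusted p of 0.0901 in limma. It passed in 4 of 18 other settings, a looser threshold of 0.10 among them. Hsph1 was also below 0 on every array, with a fitted ratio of -0.34 at an adjusted p of 0.156.

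Genes whose RefSeq promoter holds an E-box (CACGTG) within 250 bases before the start numbered 980 among those tested. Of these 27 (2.76%) were called higher and 5 (0.51%) lower, beside 1.9% and 1.09% of the 10417 tested genes with a promoter in the table. For the 212 genes with a D-box the shares were 1.89% and 2.36%, which rest on only 4 and 5 genes. These shares are descriptions and were not tested.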
